A study of Mus musculus with 8 samples.

Results

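The HoxA cluster is a row of homeobox genes on mouse chromosome 6, and Evx1, a homeobox gene related to Drosophila even-skipped, lies beside its Hoxa13 end. The genes described here are Hoxa3, Hoxa4, Hoxa5, Hoxa6, Hoxa7, Hoxa9, Hoxa10, Hoxa11, Hoxa13 and Evx1, taken in their order along the chromosome. They were found on the arrays through the RefSeq accession of each probe, which gave 10 genes and 13 probes out of 17178 genes with a symbol and 41174 noncontrol probes. RNA abundance was measured in incisor dental epithelium from 4 wild-type (WT) samples and 4 samples homozygous null for Bmi1 (Bmi1-/-, called Bmi1 null here), 1 single-colour array per sample. Both genotypes were on a mixed genetic background, whole incisors were dissociated with accumax, and the epithelium was pulled away from the mesenchyme by hand. Age, sex and the number of animals behind a sample are not given in the sources used here. The p-values therefore measure the spread between these samples, and precision is limited by the small number of arrays.

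Hox genes encode transcription factors that give cells an address along the body axis. Genes at the Hoxa3 end of the cluster act towards the head and neck, and genes at the Hoxa13 end act towards the tail and the tips of the limbs. Where a Hox gene is not in use, Polycomb complexes keep it silent, and Bmi1 encodes a subunit of Polycomb repressive complex 1. The jaw that bears the incisor forms from the first pharyngeal arch, which is known for developing without Hox gene expression.

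Levels are given on a log2 scale on which each array's 75th percentile of processed signal is 0, that is, the signal below which 75% of the probes of that array lie. A probe is called well above background by the scanner software, and the lowest such signal on an array is its background limit. The limit averaged -6.80 ± 0.37 in WT and -6.12 ± 0.34 in Bmi1 null arrays (SD, n = 4 each), and the share of all probes well above background was 69.6% to 74.4% in WT and 64.2% to 68.2% in Bmi1 null arrays. The 75th percentile of processed signal was 617 to 1899.9 in WT and 440.3 to 795 in Bmi1 null arrays. Both the limits and the 75th percentiles overlapped between genotypes, whereas the share of probes well above background did not (exact permutation p = 0.0286, two-sided). Probes entered the test when 4 or more of the 8 arrays read them well above background. The Bmi1 probe, which checks the genotype label as far as it lies in the deleted part, fell in the Bmi1 null arrays with a log2 difference of -2.82 ± 0.37 (SE, limma adjusted p = 0.0305). WT replicate 1 carries one number in its title and another on its file, and the Hoxa9 result is therefore also given with that array left out.

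Of the 10 genes, Hoxa9 rose in Bmi1 null samples. A further 3 genes (Hoxa3, Hoxa7 and Evx1) were bright enough to be tested but did not pass at 5% FDR. Hoxa7 and Evx1 had differences of 2.22 and 3.12 on the log2 scale, and Hoxa3 of 0.34. The other 6 genes, Hoxa4, Hoxa5, Hoxa6, Hoxa10, Hoxa11 and Hoxa13, were too dim to test in either genotype. The genes with a large difference thus sat in the middle of the cluster, at Hoxa7 and Hoxa9, and beyond its end, at Evx1, with the untested genes Hoxa10, Hoxa11 and Hoxa13 between them. Over all 22347 genes tested, 0.0403% were called higher and 0.00895% lower in Bmi1 null samples, against 1 of the 4 members tested, and the median difference was 0.01 over all genes and 2.67 over those 4. Hoxa9 and Evx1 entered the test only through their Bmi1 null arrays, so this count and median are descriptions. A log2 difference above 2 was found for 0.224% of all genes tested.

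**Figure D1:**
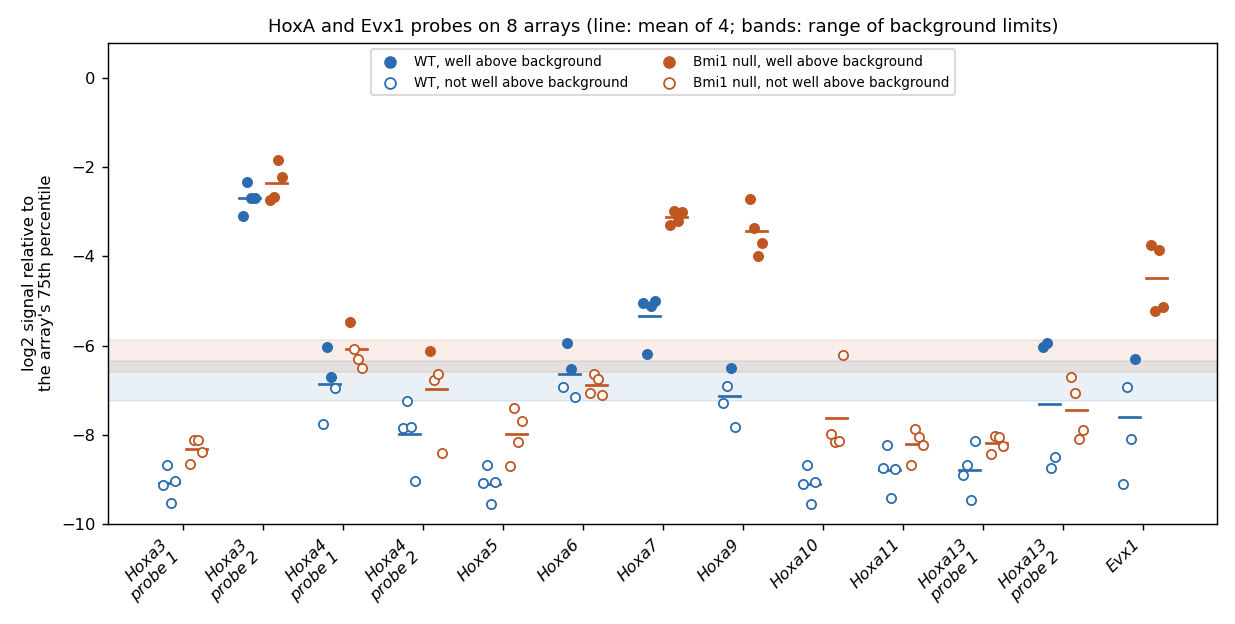
Level of each of the 13 probes on the 8 arrays, in chromosome order from Hoxa3 to Evx1 (y axis: scaled log2 level). Filled points are arrays on which the probe was well above background, lines are means of 4 arrays, and the bands span the background limits of the 4 arrays of each genotype. Hoxa7, Hoxa9 and Evx1 are the tested genes whose WT and Bmi1 null points do not overlap.

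The promoters of the genes with a large difference are shown first, because the members differed in how many CpG dinucleotides, the pairs in which vertebrate DNA is methylated, they hold there. CpG-rich promoters are known as the places where Polycomb complexes gather in mammals. Each window is the 250 bases before the annotated start site in RefSeq (build GRCm38.p6), read in the direction of transcription, with every CpG in capitals. The windows are chr6:52218574-52218823 (minus strand) for Hoxa7, chr6:52227371-52227620 (minus strand) for Hoxa9, chr6:52313248-52313497 (plus strand) for Evx1, and, as a contrast from the untested end of the cluster, chr6:52260881-52261130 (minus strand) for Hoxa13. The Hoxa13 window is the extreme, with the most CpG of all member windows, and other untested members held fewer.
Hoxa7: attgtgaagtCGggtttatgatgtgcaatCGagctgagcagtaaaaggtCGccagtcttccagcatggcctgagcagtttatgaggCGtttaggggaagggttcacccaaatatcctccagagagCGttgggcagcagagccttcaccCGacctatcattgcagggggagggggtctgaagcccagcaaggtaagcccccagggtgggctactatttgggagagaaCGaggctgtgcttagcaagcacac
Hoxa9: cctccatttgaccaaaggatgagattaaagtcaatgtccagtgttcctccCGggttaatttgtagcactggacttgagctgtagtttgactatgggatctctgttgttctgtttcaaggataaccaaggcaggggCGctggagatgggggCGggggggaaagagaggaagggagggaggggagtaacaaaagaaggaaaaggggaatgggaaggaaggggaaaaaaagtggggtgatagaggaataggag
Evx1: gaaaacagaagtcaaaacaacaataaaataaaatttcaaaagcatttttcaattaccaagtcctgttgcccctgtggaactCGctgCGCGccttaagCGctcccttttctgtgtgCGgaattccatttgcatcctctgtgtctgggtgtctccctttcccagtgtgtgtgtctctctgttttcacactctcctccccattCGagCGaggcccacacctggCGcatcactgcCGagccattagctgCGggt
Hoxa13: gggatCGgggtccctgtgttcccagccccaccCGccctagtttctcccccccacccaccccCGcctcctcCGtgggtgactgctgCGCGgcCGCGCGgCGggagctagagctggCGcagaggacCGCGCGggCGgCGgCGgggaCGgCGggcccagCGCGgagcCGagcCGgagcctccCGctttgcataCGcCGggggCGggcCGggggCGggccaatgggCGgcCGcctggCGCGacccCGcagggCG

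The Hoxa9 window held 3 CpG, the fewest among the members, and the Hoxa7 and Evx1 windows held 7 and 10. Among the other members the counts were 18 for Hoxa3, 28 for Hoxa5, 24 for Hoxa6, 13 for Hoxa11 and 35 for Hoxa13, while the 2 Hoxa10 windows held 20 and 7. The Hoxa3 window follows a distant annotated start and lies between the windows of Hoxa6 and Hoxa7 on the chromosome. Apart from Hoxa7, Hoxa9 and Evx1, Hoxa3 was the only gene with both a window and a tested difference, so CpG number and size of difference cannot be compared over these genes. RefSeq gave a window for 9 of the 10 genes, and Hoxa4 was not among them. Over all 32851 windows of the same length the median was 6 CpG, and 29.0%, 53.7% and 62.2% of windows held fewer than those of Hoxa9, Hoxa7 and Evx1, against 97.0% for Hoxa13. The annotated start need not be the one used in dental epithelium, so the windows describe the annotation only.

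Short motifs were searched on both strands in the same windows. CCAAT, the core of a common promoter box, was found in 4 of the 10 member windows (Hoxa5, Hoxa6, Hoxa13 and the CpG-rich Hoxa10 window) and in 33.8% of all windows. GGGCGG, the GC box, was in 4 (Hoxa6, Hoxa9, Hoxa13 and the other Hoxa10 window) and in 32.7% of all windows. TATAAA was in 1 window, of Hoxa10, and in 12.4% of all, and GCCATNTT, a form of the site of the Polycomb-linked factor YY1, was in 0 of the 10 and in 3.91% of all. Apart from the single GC box of Hoxa9, 103 bases before its start, no match lay in the Hoxa7, Hoxa9 or Evx1 window, which says only that these letters are not there.

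**Figure D2:**
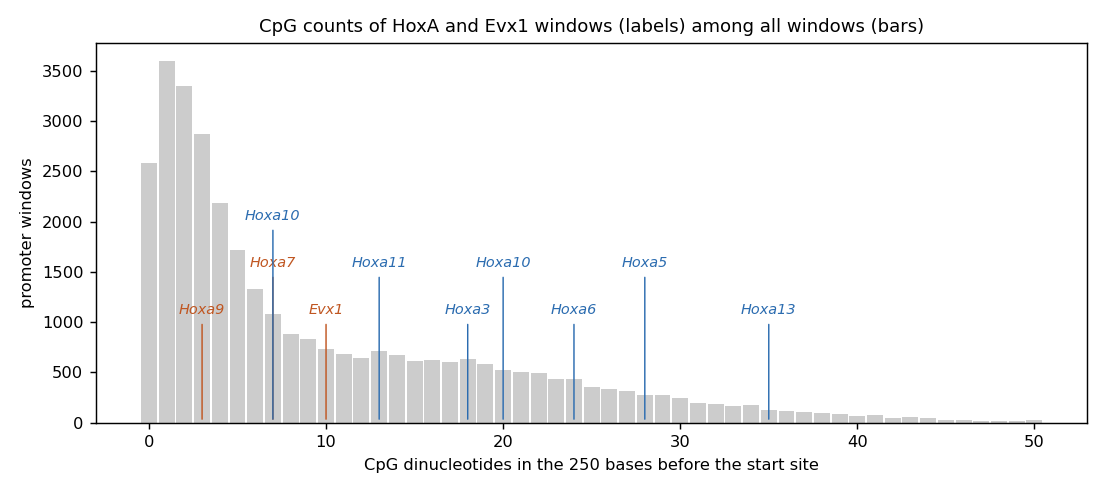
Number of CpG dinucleotides in the 250 bases before the start site (x axis), for all 32851 RefSeq windows (grey bars, number of windows) and for the members (labels, orange for Hoxa7, Hoxa9 and Evx1). The bar at 50 holds windows with 50 or more. Hoxa9 stands at 3 and Hoxa13 at 35.

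Hoxa9, which in mice maintains blood progenitors and patterns the trunk, gave the clearest change. Its levels in WT replicates 1 to 4 were -7.30, -6.91, -6.49 and -7.82, whereas Bmi1 null replicates 1 to 4 read -2.70, -3.35, -4.00 and -3.70. Every Bmi1 null array lay above every WT array, and the gap between the groups was wider than the range within either of them. As processed signal before scaling, Hoxa9 read 7.59, 5.15, 21.1 and 4.41 on WT arrays against 111, 44.5, 27.6 and 61.3 on Bmi1 null arrays, so the groups also stood apart without any scaling. WT replicate 3, the array with the highest 75th percentile, was the only WT array on which the probe was well above background. The rise was 3.69 ± 0.39 in log2 units (SE, 12.9-fold, limma adjusted p = 0.00702), 7th in order of p among all genes. With each WT value below its array's background limit set to that limit, the difference was 3.18, from -6.61 in WT to -3.44 in Bmi1 null arrays. Within slide 1 it was 4.53 and within slide 2 it was 2.85, each from 2 arrays of each genotype, and it was 3.64 without WT replicate 1 (limma adjusted p = 0.0416). With values raised to one floor common to all arrays the difference was 2.44, and with the values of the series matrix it was 1.60, and both passed (limma adjusted p = 0.0322 and 0.0277). Hoxa9 missed 5% FDR in the normexp setting (1.58, limma adjusted p = 0.181), where 0.0179% of genes were called higher. That setting differs in signal, background method and offset at once, and their parts were not tested. It also missed it in slide 1 alone, where no gene was called higher by limma, and in slide 2 alone (limma adjusted p = 0.0958), where 0.0716% were.

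Hoxa7, which helps to pattern the thoracic vertebrae in mice, was the only gene among Hoxa7, Hoxa9 and Evx1 that was well above background on all 8 arrays. Its levels were -5.05, -6.19, -5.11 and -4.99 on the WT arrays, against -3.29, -2.97, -3.19 and -3.01 on Bmi1 null replicates 1 to 4. The Bmi1 null arrays lay within a narrow range, and WT replicate 2 was lower than the other 3 WT arrays. The difference was 2.22 ± 0.32 (SE, 4.65-fold, limma adjusted p = 0.0631), which missed 5% FDR. It was 1.89 in slide 1 and 2.55 in slide 2, and 1.93 without WT replicate 2 (limma adjusted p = 0.0697). Before scaling, Hoxa7 read 36.1, 8.47, 55.0 and 31.3 on WT arrays against 73.7, 57.9, 48.1 and 98.9 on Bmi1 null arrays, so that WT replicate 3 overlapped the Bmi1 null range and the separation of the groups rests on the scaling. Hoxa7 passed with a common floor (limma adjusted p = 0.0322), with no intensity trend (0.0418), with array weights (0.0219) and with the values of the series matrix (0.0266). The share of all genes called higher was 0.0313%, 0.0447%, 0.0716% and 0.0313% in these settings.

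Evx1, which in mice acts in the primitive streak and in spinal cord interneurons, was dim in WT and uneven between arrays. It stood at -9.12, -6.92, -8.10 and -6.30 on the WT arrays, against -3.75, -5.22, -3.86 and -5.13 on Bmi1 null replicates 1 to 4. The probe was well above background on WT replicate 4 alone among the WT arrays and on all 4 Bmi1 null arrays. The groups did not overlap, and the WT arrays spread more widely than the Bmi1 null arrays, with 3 of the 4 WT values not well above background. The difference was 3.12 ± 0.62 (SE, limma adjusted p = 0.307), 2.19 with WT values raised to the background limit, 3.22 in slide 1 and 3.01 in slide 2. Before scaling, the highest WT signal was 12.6 and the lowest Bmi1 null signal 12.2, so these groups met. Evx1 did not pass under any of the 21 alternatives in which it was tested, with differences from 1.07 to 3.55 and adjusted p from 0.157 to 0.917 (limma).

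Groups that did not overlap, with Bmi1 null higher, made up 1.82% of the genes tested, against 3 of the 4 members tested (Hoxa7, Hoxa9 and Evx1). Because Hoxa9 and Evx1 entered the test only through their Bmi1 null arrays, where they are high, this count too is a description. The 3 genes did not follow one order over the Bmi1 null arrays. Replicate 1 was highest for Hoxa9 and Evx1 but lowest for Hoxa7, and replicate 2 was highest for Hoxa7 and lowest for Evx1.

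Hoxa3, which in mice is needed for the thymus and parathyroid, was measured by a pair of probes that disagreed. The bright probe, A_52_P447935, stood at -3.10, -2.33, -2.68 and -2.68 on the WT arrays, against -2.72, -2.66, -1.82 and -2.22 on Bmi1 null replicates 1 to 4, well above background on all 8 arrays. The groups overlapped, and the difference was 0.34 ± 0.28 (SE, limma adjusted p = 0.821, exact permutation p = 0.229, two-sided). The other probe, A_51_P335169, was dark on all 8 arrays and read between -9.53 and -8.11. Both carry the accession NM_010452, and where each lies in the transcript is not given in the files. In the reference table Hoxa4, Hoxa5 and Hoxa6 lie within the annotated limits of Hoxa3. Which of these transcripts the bright probe reads could not be told from the files, so the level of Hoxa3 is uncertain.

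Hoxa4, a gene of the neck vertebrae in mice, was at the edge of detection. Its brighter probe stood at -7.76, -6.04, -6.71 and -6.96 on the WT arrays, against -5.47, -6.07, -6.29 and -6.50 on Bmi1 null replicates 1 to 4. It was well above background on WT replicates 2 and 3 and on Bmi1 null replicate 1, and the groups overlapped. The other Hoxa4 probe was well above background on Bmi1 null replicate 1 alone, at -6.12. For the brighter probe the log2 difference was 1.59 within slide 1, which holds Bmi1 null replicate 1, and -0.02 within slide 2. Hoxa6, a thoracic gene that lies next to Hoxa7, was well above background on WT replicates 2 and 3 and on no Bmi1 null array. It stood at -6.93, -5.95, -6.52 and -7.15 on WT arrays, against -7.07, -6.64, -6.74 and -7.10 on Bmi1 null arrays, and the groups overlapped. One Hoxa13 probe, A_51_P303316, was well above background on WT replicates 1 and 2, at -6.04 and -5.94, and on no Bmi1 null array. Hoxa13, which shapes the digits and the genital tract, thus had its 2 brightest readings in WT samples, on probe A_51_P303316, while probe A_52_P71789 was dark throughout, at -9.47 to -8.03.

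Hoxa5, which in mice acts in the lung and neck, and Hoxa10 and Hoxa11, which act in the uterus and the limb, were dark on all 8 arrays. Hoxa5 read -9.56 to -7.39, Hoxa10 -9.56 to -6.20 and Hoxa11 -9.42 to -7.86. These 3 genes with the dark Hoxa3 and Hoxa13 probes made 5 dark probes, and all 5 had higher scaled values in Bmi1 null arrays, by a median of 0.77. The 8886 probes of the arrays that were dark throughout had a median difference of 0.73, and 93.1% of them were positive, so the scaled values of dark spots differ between genotypes across the whole array. The groups did not overlap for 2 of the 5 (Hoxa10 and the dark Hoxa3 probe), against 35.2% of all dark probes. No level, fold or direction is read from these probes. In Bmi1 null replicate 4 the Hoxa10 probe reached -6.20, near that array's limit of -6.14, while the other 3 Bmi1 null arrays lay between -8.17 and -7.99.

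Over the 13 probes, the number well above background was 3, 5, 5 and 3 on the WT arrays, against 6, 4, 4 and 4 on Bmi1 null replicates 1 to 4. The number of detected probes therefore overlapped between genotypes. By gene, 5 were detected on at least 1 array of both genotypes (Hoxa3, Hoxa4, Hoxa7, Hoxa9 and Evx1), 2 on WT arrays only (Hoxa6 and Hoxa13), 3 on none and 0 on Bmi1 null arrays only. The shares of all genes in these classes were not counted, so the classes are descriptions. The detected WT readings of Hoxa6 and Hoxa13 lay below the background limits of Bmi1 null replicates 2 and 3 (-5.89 and -5.87). A level above the highest background limit of all arrays (-5.87) was reached by 1 or 2 probes on each WT array and by 4 or 5 on each Bmi1 null array. Of all probes, 64.8% to 67.7% reached it on WT arrays and 65.3% to 68.1% on Bmi1 null arrays.

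**Figure D3:**
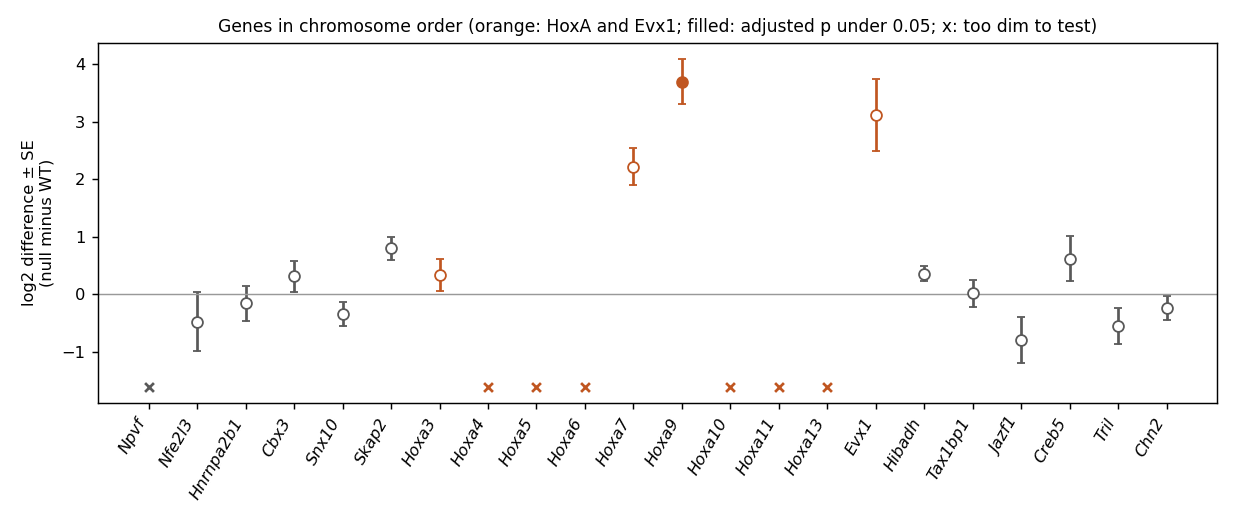
Difference between genotypes (y axis: log2, Bmi1 null minus WT, bars are SE of the fit) for the members and the 6 nearest genes with a probe on each side, in chromosome order. Filled points passed 5% FDR and crosses mark genes too dim to test. HoxA genes other than the 9 named are not shown. Hoxa9 stands at 3.69, and the tested neighbours lie between -0.80 and 0.81.

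Genes that flank the cluster were compared to see whether the difference reached past it. Of 12 neighbours, 6 on each side with Hox genes left out, 11 were bright enough to test and limma called 0 (2 were higher before adjustment, at p under 0.05). Their median difference was -0.15, with 5 positive and 6 negative. The groups did not overlap for 2 of the 11, Skap2 and Hibadh, both higher in Bmi1 null arrays, against 1.82% of all genes tested. Skap2, a signalling adaptor of blood cells and the nearest of the 6 on the Hoxa3 side, had a difference of 0.81 ± 0.20 (SE, limma adjusted p = 0.64). Hibadh, an enzyme of valine breakdown and the nearest on the Evx1 side, had 0.36 ± 0.13 (0.770). Jazf1 had -0.80 ± 0.40 and Tril -0.55 ± 0.32, also short of the threshold. RefSeq lists 11 noncoding genes between Hoxa3 and Evx1, and none was matched to a probe here.

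Genes of the HoxB, HoxC and HoxD clusters give the setting for the HoxA values. Of 25 such genes on the arrays 9 were tested and 5 were called higher, namely Hoxb5, Hoxb6, Hoxb7, Hoxc5 and Hoxc9, and 0 lower, against 0.0403% called higher of all genes tested. These 5 genes were well above background on 0 or 1 WT arrays and on all 4 Bmi1 null arrays, so they too entered the test only through the arrays on which they are high, and the count is a description. By paralogue group, the sets of genes at the same place in each cluster, Hoxa9 had 3.69, Hoxc9 9.12 and Hoxb9 1.01 ± 1.48 (SE, not called). In group 7 Hoxa7 had 2.22 and Hoxb7 6.61, and in group 3 Hoxa3 had 0.34 and Hoxb3 -0.34, neither of them passing. Hoxa5 and Hoxa6 were dark or dim in Bmi1 null arrays while Hoxb5 (3.57), Hoxc5 (4.69) and Hoxb6 (3.76) were called. Of 2 HoxD genes tested, limma called 0, and 0 had an unadjusted p under 0.05. Hoxd4 stood at -5.44 ± 0.72 in WT and -4.34 ± 1.27 in Bmi1 null arrays (SD, n = 4 each), and Hoxd8 differed by 0.13. In groups 10 to 13 none of these Hox genes was bright enough to be tested. Whether clusters differ was not tested, and folds against dark WT arrays depend on the background.

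**Figure D4:**
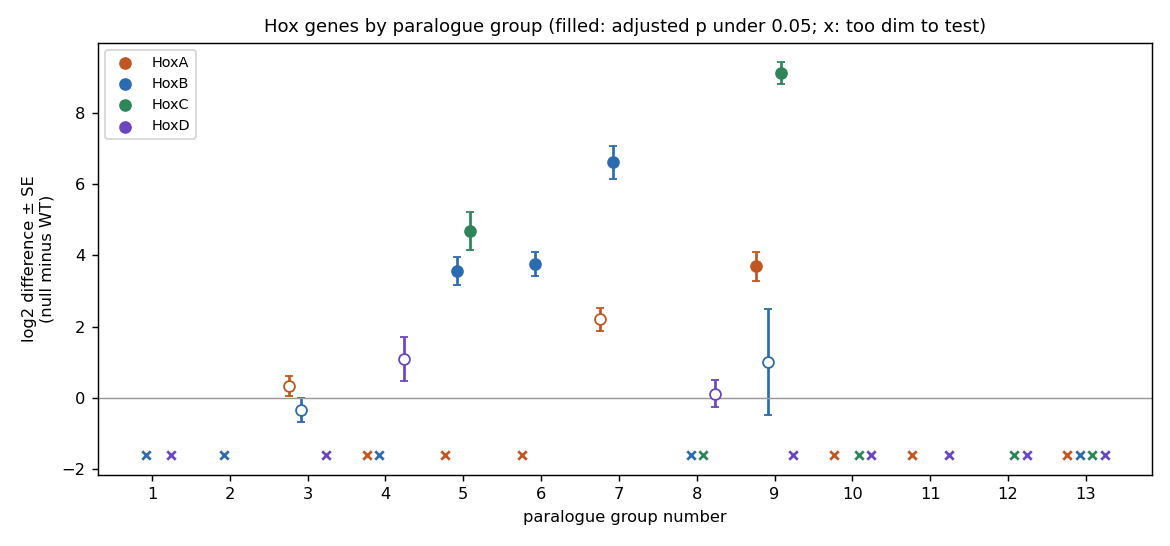
Difference between genotypes (y axis: log2, Bmi1 null minus WT, bars are SE) for Hox genes by paralogue group number (x axis) and cluster (colour). Filled points passed 5% FDR and crosses mark genes too dim to test; for HoxA only the 9 named genes are shown. Called genes lie in groups 5, 6, 7 and 9.

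Patterns over the 8 arrays were compared by the root mean square difference of log2 values after each gene was centred on its own mean, over 13833 genes with a symbol. Nearest to Hoxa9 were Hoxb6 (0.52), Hoxb5 (0.69), Fgf5, which encodes a growth factor (0.71), and Hoxc5 (0.86), against a median of 1.92 over all genes. Hoxa7 was at 1.01 and Evx1 at 1.13 from Hoxa9, 6th and 10th in that order. From Hoxa7 the order was different, with Hoxa9 962nd, Hoxa3 3124th and Evx1 6396th, and the median over all genes was 1.20. Nearest to Hoxa7 were Prss16 (0.46), a thymus protease gene, Igf2bp3 (0.55), which encodes an RNA-binding protein of fetal tissue, Spag6 (0.57), a gene of sperm tails, and Barx1 (0.63), a homeobox gene of molar and stomach mesenchyme. Hoxa3 lay at 1.81 from Hoxa9 and was 3321st in order. The measure counts the difference between genotypes as part of the pattern, so genes with differences of like size come out near each other. Hoxb6, Hoxb5, Fgf5 and Hoxc5 were well above background on 0 or 1 WT arrays. They entered the test only through their Bmi1 null arrays, so these ranks are descriptions. The differences of Fgf5 and Hoxc5 were 3.02 and 4.69.

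Proteins that act with or on Hox genes were examined for the same samples. PBX, MEIS and PKNOX proteins bind DNA beside Hox proteins, and all 9 of their genes were tested: limma called 0 (1 was higher before adjustment, at unadjusted p under 0.05), with 7 positive and a median of 0.08. Meis2 had the largest difference, 2.12 ± 0.60 (SE, limma adjusted p = 0.681), followed by Meis1 with 0.67 ± 0.37 and, below 0, Pbx4 with -0.29. Of 15 tested genes listed as trithorax and DOT1L activators of Hox genes, 0 passed by limma (0 at unadjusted p under 0.05). Their median was 0.07. Kmt2b and Kdm6b had 0.42 and 0.47, and Psip1 and Aff4 had -0.42 and -0.18. Cdx proteins and retinoic acid switch Hox genes on in the embryo. Cdx1, Cdx2 and Cdx4 were dark on all 8 arrays, and of the 13 genes of this list that were tested limma called 0 (1 was higher before adjustment, at unadjusted p under 0.05), with a median of 0.26. The summed level of the tested genes was 61.5 to 65.8 in WT and 69.1 to 85.3 in Bmi1 null arrays, without overlap. Their mean log2 level, in which each gene weighs the same, did overlap, at 0.25 to 0.49 in WT and 0.37 to 0.69 in Bmi1 null arrays. For none of these genes alone did the groups stand apart. Dhrs3, a retinaldehyde reductase, had 0.70 ± 0.27 and Aldh1a2, which makes retinoic acid, -0.93 ± 0.50. Neither value passed.

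Cell type markers were measured beside the Hox result. Of 13 tested markers of dental epithelium 12 had a positive difference (median 0.79), and limma called 0 (10 were higher before adjustment, at p under 0.05). Their summed level, in multiples of the array's 75th percentile, was 358 to 509.8 in WT and 669 to 1072 in Bmi1 null arrays, with no overlap. Their mean log2 level, in which each gene weighs the same, did overlap, at 3.59 to 4.16 in WT and 4.11 to 5.21 in Bmi1 null arrays. Markers of the other cell types overlapped in summed level: mesenchyme and odontoblasts at 354 to 525 in WT and 385 to 803 in Bmi1 null arrays (12 tested of 12, 8 positive), endothelium at 23.0 to 40.5 and 20.9 to 34.3 (8 of 8, 1 positive), leukocytes and blood progenitors at 17.6 to 28.3 and 11.3 to 21.1 (9 of 12, 2 positive), skeletal muscle at 3.01 to 7.93 and 3.17 to 8.44 (8 of 10, 2 positive), and nerve and glia at 18.4 to 31.2 and 19.7 to 24.1 (6 of 8, 2 positive). In these other lists limma called 0. Before adjustment, at p under 0.05, 2 mesenchyme markers were higher, and 2 leukocyte markers (Ptprc and Csf1r), 1 endothelial and 1 muscle marker were lower. The share of all genes at that threshold was not counted, so these counts and the 10 of the epithelium are descriptions. Of the listed markers with a probe, only the muscle marker Myog was dark on every array. The part of these shifts in the Hoxa9 rise was not tested. In WT arrays the mesenchyme markers summed to 354 to 525, much like the epithelium markers at 358 to 509.8. The samples thus hold RNA of several cell types, and which of them carries the Hoxa9 RNA is not known. In these bulk samples more cells that express Hoxa9 and more Hoxa9 RNA per cell cannot be told apart.

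**Figure D5:**
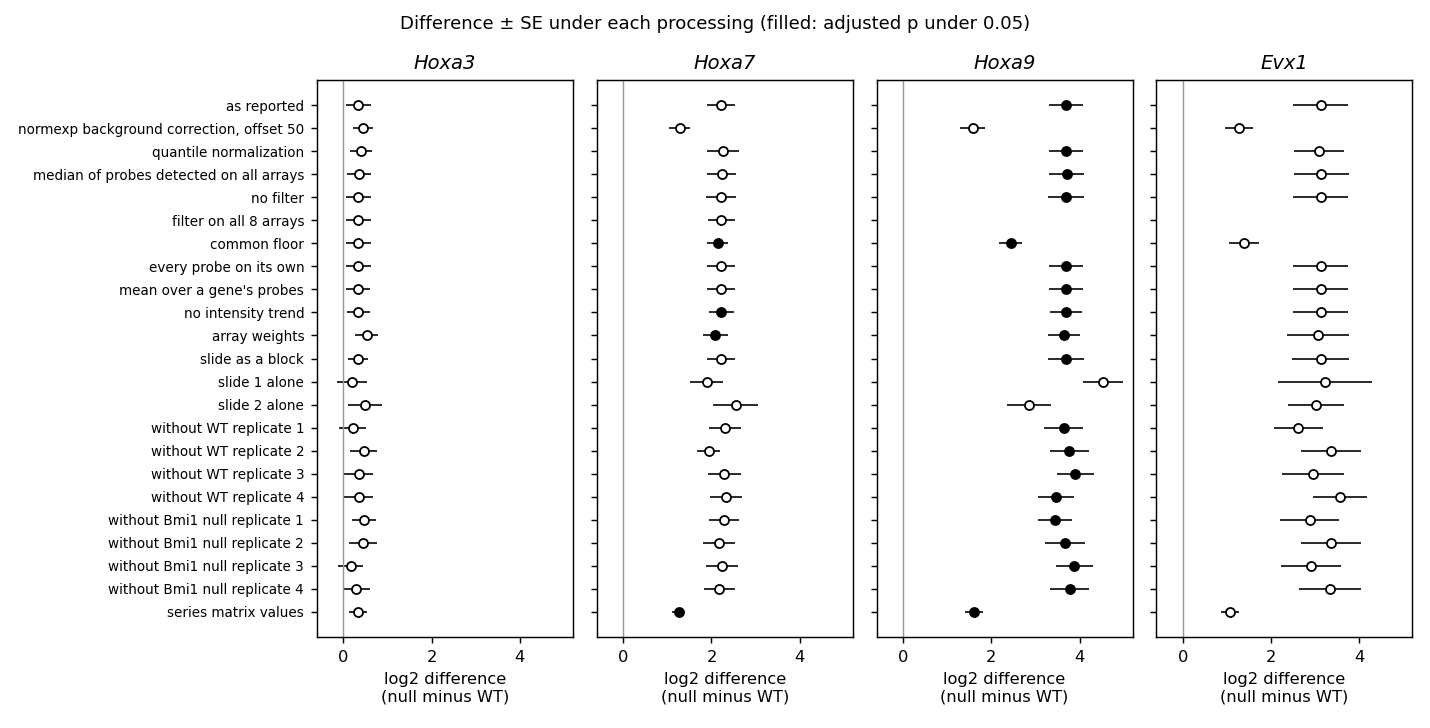
Difference between genotypes (x axis: log2, Bmi1 null minus WT, bars are SE of the fit) for the 4 tested genes under each processing (y axis). Filled points passed 5% FDR. All points lie above 0; Hoxa9 is filled in 18 of 21 alternatives, Hoxa7 in 4 of 22, and Hoxa3 and Evx1 in none of 22 and 21.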

How the data were processed

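RNA from 8 incisor epithelium samples was hybridised to Agilent mouse arrays, 1 per sample. Per the file headers, the authors extracted the scans with Feature Extraction 10.5.1.1 on a grid that names build mm9. The deposited processed signal is a linear intensity, corrected within the array for background and spatial trend and not between arrays. The deposited well-above-background marks and other 0 or 1 indicators are per spot. The deposited series matrix holds log2 values whose ranks equal those of the uncorrected median signal, quantile normalized as far as the values show; whether they are centred further is not stated (medians 6.76 to 6.77), and they were an alternative.

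Control and outlier spots did not enter. Each processed signal was divided by its array's 75th percentile before log2 was taken. The reference table (GRCm38.p6) named 24844 of 41174 probes. Where several probes of a gene entered, the one with the highest mean level was used, and unnamed probes were kept singly. Genotypes were compared on all 8 arrays in R 4.3.3 with limma 3.58.1 (intensity trend, two-sided, Benjamini-Hochberg over 22347 genes), checked on simulated data. The arrays came from 2 slides, each with 2 arrays of each genotype. No spot was saturated. Alternatives changed 1 choice at a time, with 2 exceptions. The files used here hold no mean signal, so the normexp setting also replaced the processed by the median signal and added an offset of 50. The series matrix setting changed signal, background treatment and normalization together. The members, lists and tests were chosen with earlier results of these data known. Counts at unadjusted p under 0.05 are given without the share of all genes at that threshold, which was not counted, and are descriptions. Named genes are the members, Bmi1, called genes and up to 4 with the smallest p in each list, and the 4 nearest patterns of Hoxa7 and Hoxa9. Hoxb9, Hoxb3, Hoxd4 and Hoxd8 are named by that rule.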

Additional observations from a re-analysis of the deposited data

Results flagged for a closer look

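Of 26 sets of 4 arrays (13 probes in each genotype), 2 held an array far from the other 3, where chance gives about 1 in 20. Hoxa7 stood at -6.19 in WT replicate 2, below a next value of -5.11, and was still well above background there. The Hoxa10 probe stood at -6.20 in Bmi1 null replicate 4, above a next value of -7.99, and was not well above background on that array.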

How the results depend on the processing

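No paired analysis was possible because the labels give the genotypes no shared replicate numbers. All 22 alternatives were planned, and the differences of Hoxa3, Hoxa7, Hoxa9 and Evx1 stayed positive in every one that tested them. The number of these genes called by limma was 1 as reported; it was 2 (Hoxa7 and Hoxa9) with a common floor, no intensity trend, array weights or the series matrix values, and 0 with normexp, the filter on all 8 arrays, slide 1 alone or slide 2 alone (3, 1, 3 and 3 at unadjusted p under 0.05). Of all genes, 0.0179% were called higher with normexp and 0.0716% in slide 2, but 0 of 19657 with the filter on all 8 arrays and 0 in slide 1, so in the last 2 settings the count says nothing of single members. Under the filter on all 8 arrays Hoxa9 and Evx1 were not tested. Hoxa9 was not called with normexp (1.58), in slide 1 (4.53) or in slide 2 (2.85), with fewer arrays in the slides. Hoxa7 was called with the common floor (2.14), no trend (2.22), array weights (2.09) and series matrix (1.25). Without 1 array each, the count stayed at 1, and the differences were 0.16 to 0.46 for Hoxa3, 1.93 to 2.33 for Hoxa7, 3.45 to 3.90 for Hoxa9 (adjusted p 0.0103 to 0.0416) and 2.61 to 3.55 for Evx1. The mean number of member probes detected was 4 in WT and 4.5 in Bmi1 null arrays; with the positive-and-significant mark it was 8 and 9.25, and above the highest background limit 1.75 and 4.25. The cause of these shifts was not tested. The smallest exact permutation p with 4 against 4 arrays is 0.0286.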
